A study of Mus musculus with 9 samples.

Results

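The promoters of the nuclear genes for the mitochondrial respiratory chain were examined by NOMe-seq in mouse embryonic stem cells (mESCs) during differentiation. Members were chosen as those windows on chromosomes 1 to 19 in which a protein-coding gene has its annotated 5′ end, where the symbol of that gene starts with Nduf, Uqcr, Atp5 or Cox4 to Cox8, or is Sdha, Sdhb, Sdhc, Sdhd, Cyc1 or Cycs. This rule named 93 genes on those chromosomes, and 91 of them had their 5′ end in a window. A value in every library was present for 90 of the 91, so 90 member windows were used, beside 18689 other autosomal windows with a protein-coding start, of 829493 windows in all. The 3 genes left out were Atp5f1 on chromosome 3 and Ndufa6 on chromosome 15, whose 5′ ends fell between windows, and Ndufaf4 on chromosome 4, whose window had no value at day 0. The symbol Atp5o is borne by 2 annotated genes on chromosome 16, and both are members.

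In NOMe-seq, chromatin of fixed cells is treated with an enzyme that methylates cytosine in GpC wherever DNA lies free of nucleosomes and other proteins, and the methylation is read by bisulfite conversion and sequencing. Each value below is a GpC methylation level in percent, over a window of 2254 bp for the median member, and a higher level stands for more accessible DNA. Cells of a female FVB/CAST F1 mESC line were grown in 2i, moved to DME HiHi medium to differentiate, given a virus with a short hairpin RNA on day 2, selected with puromycin on day 3 and collected at days 4, 5, 6 and 7. The hairpin was either a non-silencing control (Nons) or one titled Smarcc16, in samples whose genotype is given as Smarcc knockdown and whose series title names Smarcc1, which codes for a scaffold protein of the BAF nucleosome remodellers. Undifferentiated cells at day 0 had no hairpin. Each of the 9 libraries was the only one of its condition and day, so there were no replicates. Both arms had been transduced and selected, and RNA was not measured in these libraries, so the knockdown itself could not be checked in these data. The study reports, from separate RNA-seq of differentiating FVB/CAST mESCs, that knockdown lasted through that assay. The deposited file gave no depth, and the precision of a single window was therefore unknown. The start window of Smarcc1 itself ran from 7.45 to 44.9% over the 9 libraries, which says nothing of its RNA. The cell type could not be checked from these values either. The start windows of 8 stem cell marker genes, among them Pou5f1 and Sox2, had a median of 23.9% at day 0, against 15.0% for other promoter windows, but 11 regulators that are not such markers had 23.3%.

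The respiratory chain carries electrons from NADH through complex I, or from succinate through complex II, to ubiquinone, and on through complex III and cytochrome c to complex IV, which reduces oxygen. Complex V, the ATP synthase, uses the proton gradient that complexes I, III and IV build. Most subunits are encoded in the nucleus by genes that are active in nearly all cells and that often have CpG-rich promoters with sites for NRF-1, ETS family factors such as GABP, and SP1, while a few subunits of complex IV exist as isoforms restricted to muscle, testis or lung.

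The sequences below are the bases just before the start of 8 members, taken from the RefSeq promoter table on build GRCm38.p6 and trimmed so that no exon of a protein-coding gene is included, with the last base 0 to 49 bases before the RefSeq start. They were chosen to show members with the highest levels (Uqcrh, Ndufaf3, Atp5g1, Cox6b2), members with low levels (Cox7b2, Atp5k), and the members with the largest mean difference upward and downward among those with one sign on all 4 days of the knockdown comparison (Uqcr11, Ndufaf8). Capitals mark GpC followed by A, C or T on the printed strand, the context in which the enzyme's mark can be told from CpG methylation. All are printed 5′ to 3′ in the direction of the gene.
Uqcrh: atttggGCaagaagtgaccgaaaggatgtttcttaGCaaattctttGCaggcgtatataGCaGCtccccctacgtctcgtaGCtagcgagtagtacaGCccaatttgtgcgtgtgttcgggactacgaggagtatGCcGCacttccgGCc
Ndufaf3: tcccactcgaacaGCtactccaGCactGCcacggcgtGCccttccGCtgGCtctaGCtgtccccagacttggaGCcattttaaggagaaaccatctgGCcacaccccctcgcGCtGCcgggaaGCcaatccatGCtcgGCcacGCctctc
Atp5g1: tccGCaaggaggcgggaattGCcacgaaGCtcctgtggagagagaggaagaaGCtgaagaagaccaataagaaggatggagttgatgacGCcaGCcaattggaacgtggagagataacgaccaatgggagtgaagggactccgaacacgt
Cox6b2: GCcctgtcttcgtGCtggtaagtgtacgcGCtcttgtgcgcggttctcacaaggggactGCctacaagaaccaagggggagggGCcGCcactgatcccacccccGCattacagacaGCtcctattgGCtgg
Cox7b2: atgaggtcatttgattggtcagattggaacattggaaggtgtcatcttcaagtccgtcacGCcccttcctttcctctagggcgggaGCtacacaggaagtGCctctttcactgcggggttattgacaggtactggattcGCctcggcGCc
Atp5k: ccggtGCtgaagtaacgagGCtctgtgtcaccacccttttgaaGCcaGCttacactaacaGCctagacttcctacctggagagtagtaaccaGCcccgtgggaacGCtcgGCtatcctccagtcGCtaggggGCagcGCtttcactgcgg
Uqcr11: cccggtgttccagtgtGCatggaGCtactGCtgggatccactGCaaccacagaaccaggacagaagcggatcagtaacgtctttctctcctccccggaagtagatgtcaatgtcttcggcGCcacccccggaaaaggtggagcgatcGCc
Ndufaf8: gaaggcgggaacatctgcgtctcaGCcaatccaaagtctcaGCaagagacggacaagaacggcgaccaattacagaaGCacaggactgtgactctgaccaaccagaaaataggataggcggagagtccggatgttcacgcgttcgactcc
In the order printed, these lie at chr4:116075072-116075221, chr9:108567437-108567586, chr11:96075671-96075820, chr7:4753095-4753225, chr5:71548206-71548355, chr5:108434449-108434598 and chr10:80406831-80406980 on the minus strand, and at chr11:120098778-120098927 on the plus strand. Each printed stretch lies wholly inside the window of its gene. The number of marked GpC sites is 10 of the 150 bases for Uqcrh and 15 of 150 for Ndufaf3, but 3 of 150 for Ndufaf8. The members with low levels had 11 for Atp5k and 5 for Cox7b2, and Atp5g1, among the highest, had 6. CpG dinucleotides number 7 to 10 in the 8 stretches, with 7 for both Cox6b2 and Cox7b2.

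By their median, member windows were more accessible than other promoter windows in all 9 libraries. Their median level was 18.9% at day 0, against 15.0% for the other promoter windows. In Nons it was 23.5, 35.3, 18.9 and 11.7% at days 4, 5, 6 and 7, against 19.2, 30.5, 14.3 and 8.93%. In the knockdown it was 17.6, 29.9, 19.3 and 14.8%, against 15.0, 26.2, 16.2 and 9.72%. The distance between both medians was smallest in the day 4 knockdown library, at 2.64 percentage points, and widest in the day 7 knockdown library, at 5.04, with a median of 3.95 ± 0.877 (SD over 9 libraries). The day 7 knockdown library also had the most windows at 0%, with 5.40% of other promoter windows and 5 members. In every other library the share of other promoter windows at 0% was 2.45% or less. Members and other promoters overlapped widely in every library, as the quartiles show.

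**Figure D1:**
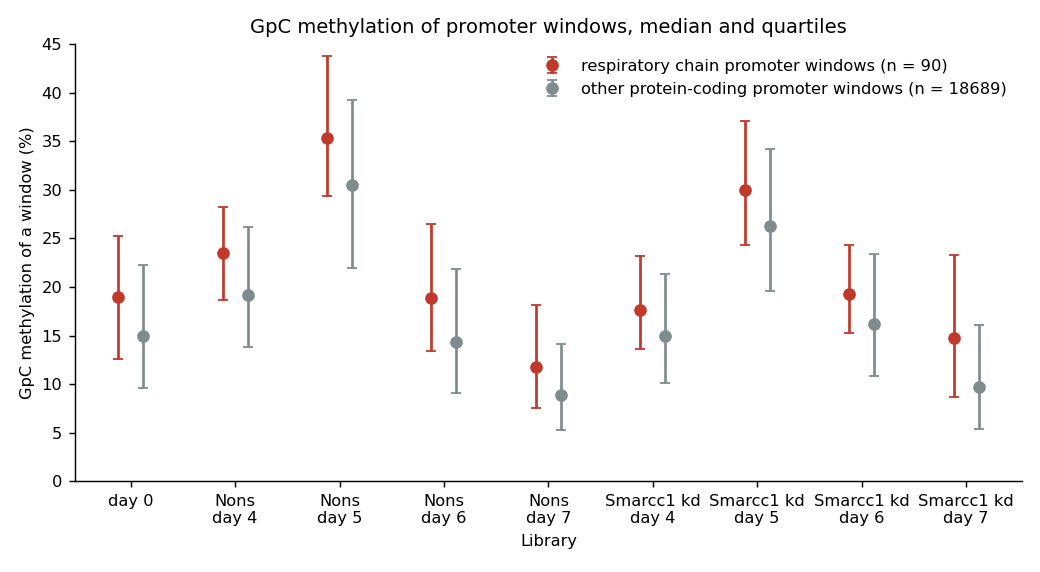
GpC methylation in percent (vertical axis) of the 90 respiratory chain promoter windows and the 18689 other protein-coding promoter windows in each of the 9 libraries (horizontal axis). Points are medians over windows and bars run from the lower to the upper quartile. The member median lies above the other in every library, and both are highest at day 5 and lowest at day 7.

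Across single windows, 12 of the 90 members (13.3%) lay above the promoter median in all 9 libraries, where 4.74% of all promoter windows did. None lay below it in all 9, against 4.95% of promoter windows. By the mean over 9 libraries, 76 members (84.4%) were above the median of promoter windows, 33 (36.7%) above their 75th percentile and 2 below their 25th percentile. The 75th percentile was exceeded in every library by 1 member, Atp5g1, against 0.479% of promoter windows. The order of members was loosely kept between libraries: over the 36 pairs of libraries the median Spearman correlation across member windows was 0.134, against 0.314 across the other promoter windows. These correlations are descriptions across windows that share 2 libraries, and they limit how far a single member's value in 1 library can be read.

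The members also had a higher median CpG content, which the rule did not use. Their median CpG observed over expected, the count of CpG relative to that given by the C and G content of the window, was 0.516, against 0.378 for other promoter windows. It was 0.5 or more in 50 members (55.6%), against 35.0% of the other windows. It was under 0.3 in 13 members (14.4%), against 41.0% of the other windows. GC content and GpC density were close to those of other promoters, with medians of 48.6% against 49.0% GC and 57.5 against 57.1 GpC per kb. Over the other promoter windows the mean level had a Spearman correlation of 0.774 with CpG observed over expected, and over the 90 members one of 0.382. Correlations over members and over other windows, here and between libraries, thus come from sets of unlike CpG content.

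Beside windows of like CpG content the distance shrank. Among windows within the members' own 25th to 75th percentile of CpG observed over expected, a comparison chosen after seeing the data, 44 members stood 1.16 percentage points above 5025 other windows as the median over 9 libraries, in place of 3.95. The members' median was the higher one in all 9 libraries there too, by 0.537 to 4.00 points. In windows with a ratio under 0.3, the 13 members had a median mean level of 17.4% and the other promoter windows 13.3%. Between 0.3 and 0.5, 27 members had 21.6% and other windows 19.5%. Between 0.5 and 0.6, 26 members had 22.8% and other windows 22.1%. At 0.6 and over, 24 members had 23.0% and other windows 24.4%, so that in this class the member median was the lower one. The part of CpG content in the higher levels was not tested.

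**Figure D2:**
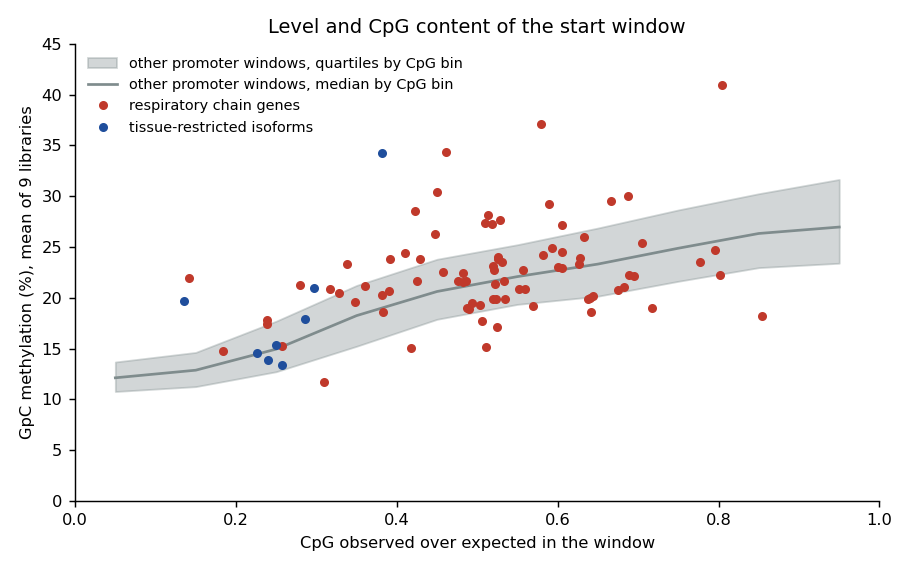
Mean GpC methylation over 9 libraries in percent (vertical axis) against CpG observed over expected (horizontal axis). Points are single members, with the 8 tissue-restricted isoforms in blue, and the grey line and band give the median and quartiles of the other promoter windows in bins of 0.1. Most members sit inside or near the band, and the isoforms lie mainly at the CpG-poor end.

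A neighbouring start was also more frequent among members than among other promoters, though most members had none. Another protein-coding or long non-coding start lay in the same window for 38 members (42.2%), against 13.2% of the other promoter windows. In 36 of the 38 the other start was on the opposite strand within 1000 bp, at distances of 8 to 967 bp with a median of 133 bp, as for Sdhd and Timm8b, which codes for a protein import chaperone, 98 bp apart. The value of such a window belongs to both genes. Members with another start had a median mean level of 21.9%, and other promoter windows with another start 22.1%. For the 52 members with 1 start it was 21.4%, against 17.4% in other promoter windows with 1 start.

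High levels were local to the start. The member start window had a median of 18.9% as the median of 9 libraries, while the next windows upstream and downstream, centred about 2.3 kb away, had 12.7 and 12.6%. At the other protein-coding starts the values were 15.0%, then 12.0 and 12.5%. By the mean over libraries, 73 of 90 member windows (81.1%) exceeded both neighbours, as did 62.0% of the other promoter windows.

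**Figure D3:**
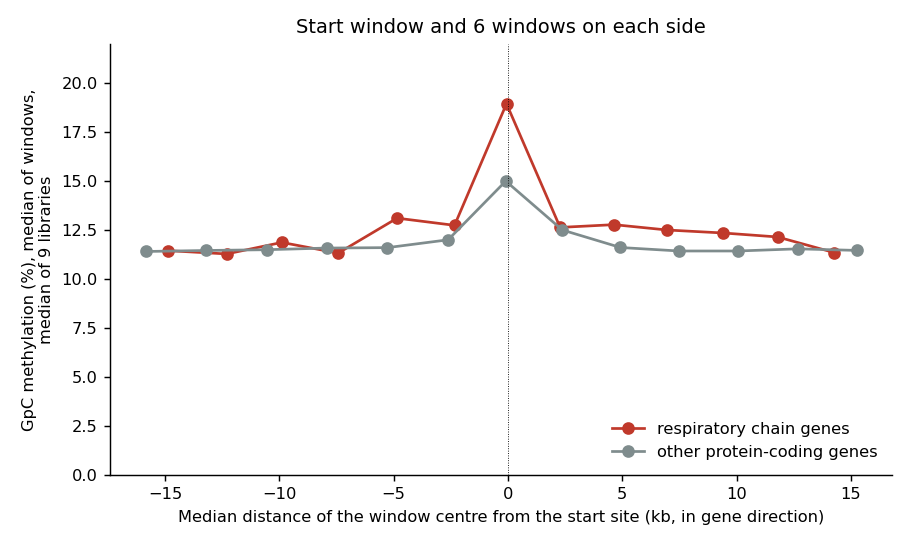
GpC methylation in percent (vertical axis) of the window that holds the start and of 6 windows on each side, against the median distance of the window centre from the start in kb, in the direction of the gene (horizontal axis). Each point is the median over genes within a library, then the median of 9 libraries. Respiratory chain genes reach 18.9% and other protein-coding genes 15.0% in the start window, and both are near 11 to 13% beyond it.

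Motifs were searched on both strands of the 250 bases before RefSeq starts that lay in the member's own window, which was possible for 64 of the 90 members. The NRF-1 core GCGCANGCG was found in 12 of 64 members (18.8%), against 5.16% of all 32851 RefSeq promoters and 8.14% of the 15956 in other protein-coding promoter windows. It was present before Cycs, Sdha, Sdhd, Atp5c1 and Atp5k among others. The ETS core CCGGAAG was found in 13 (20.3%), against 6.91% and 10.6%, and is held by the printed stretches of Uqcrh and Uqcr11. The SP box GGGCGGG was found in 20 (31.2%), against 23.4% and 34.3%. The TATA box TATAAA was found in 6 (9.38%), against 12.4% and 10.4%. The YY1 motifs ATGGCGGC and GCCATNTT were found in 1 and 3 members, against 1.03% and 3.91% of all promoters, and the ERR element TCAAGGTCA in 1, against 0.387%. The YY1 motifs share the letters ATGGC on opposite strands, so 1 stretch can match both. Members with and without the NRF-1 core had median mean levels of 22.2% and 21.9%, while other promoters with and without it had 23.4% and 19.4%. The NRF-1 and ETS cores both contain CpG. The searched 250 bases held a median of 15 CpG in members, 12 in other protein-coding promoter windows and 6 over all RefSeq promoters. The part of CpG content in the motif shares was not tested. A match is a run of letters and not a measured binding site.

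By complex, the median levels lay within a few points of each other. The median mean level over 9 libraries was 20.9% for the 33 windows of complex I, 22.6% for 7 of its assembly factors, 19.4% for the 4 of complex II, 23.4% for the 9 of complex III, 21.0% for the 19 of complex IV and 22.3% for the 17 of complex V. The median of all promoter windows was 18.2%. All 9 windows of complex III exceeded it, and 68.4% of those of complex IV did. The mean levels of single members ran from 17.1 to 21.6% within complex II and from 19 to 41.0% within complex III.

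**Figure D4:**
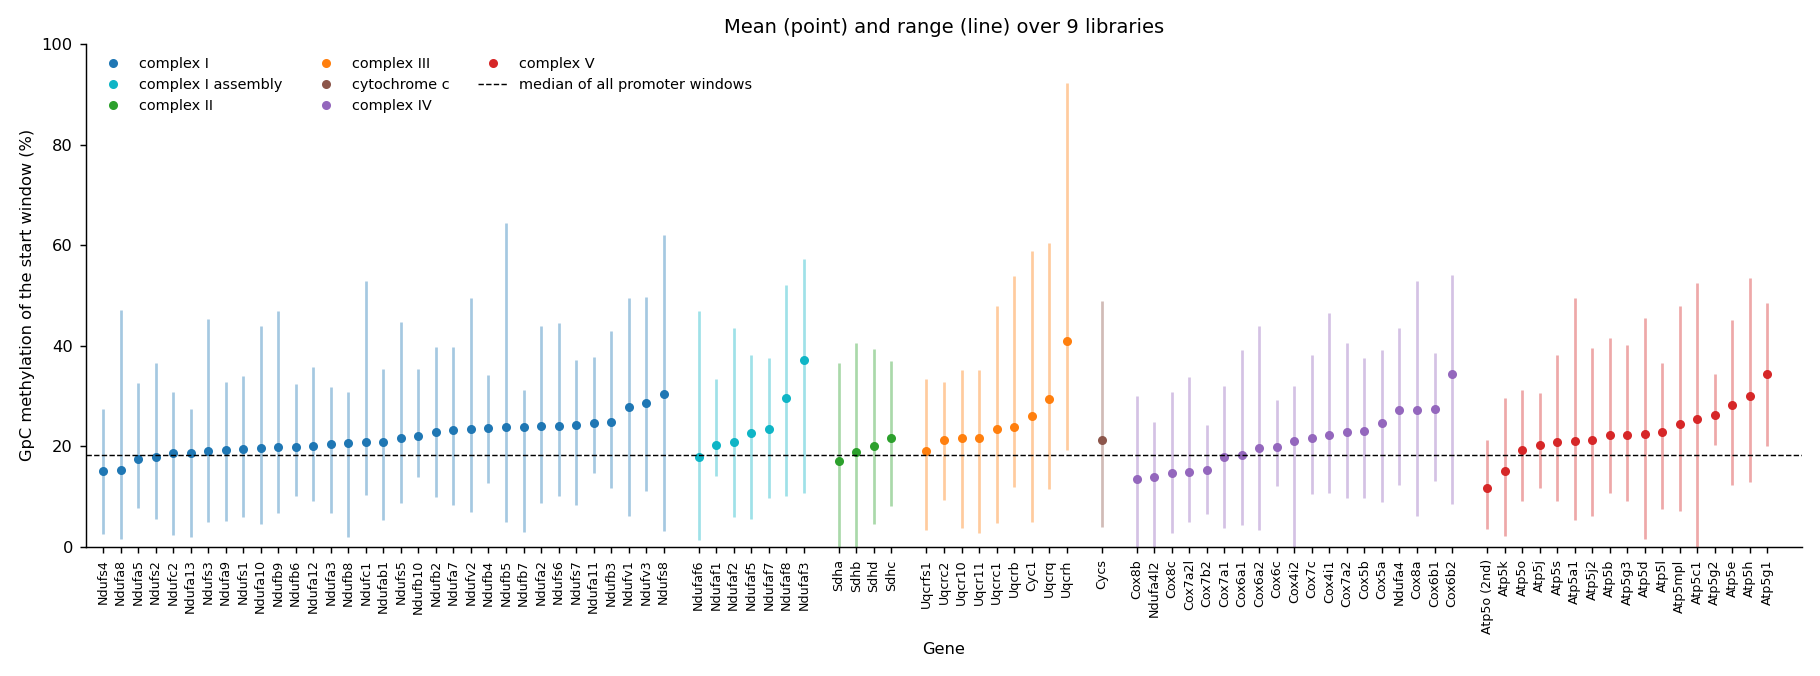
GpC methylation in percent (vertical axis) of each member, ordered by mean within each complex (horizontal axis). Points are means over 9 libraries, lines run from the lowest to the highest library, and the dashed line is the median of all promoter windows. The lines of nearly all members overlap, and Uqcrh reaches 92.3% in 1 library.

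Complex I, the NADH dehydrogenase, held Ndufs8, an iron-sulfur subunit, as its highest member with a mean of 30.4%. It had 62.1% at day 0, 27.1, 40.2, 33.3 and 3.12% in Nons at days 4, 5, 6 and 7, and 30.2, 48.5, 14.3 and 14.9% in the knockdown on those days. Its 3 highest values were those of day 0 and both day 5 libraries, and it was at 3.12% in Nons at day 7. Ndufs4, an accessory subunit needed for a stable complex, was the lowest with a mean of 15.1%. It had 2.50% at day 0, 13.0, 27.3, 18.8 and 13.1% in Nons at days 4, 5, 6 and 7, and 12.9, 16.7, 20.5 and 11.5% in the knockdown on those days. No library placed Ndufs4 above 30%.

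Among the complex I assembly factors, which help to build the enzyme without staying in it, Ndufaf3 was the highest with a mean of 37.1%. It had 56.8% at day 0, 57.1, 48.0, 33.3 and 10.7% in Nons at days 4, 5, 6 and 7, and 14.1, 41.7, 21.9 and 50.0% in the knockdown on those days. It was thus at 50% or more in 3 libraries of 9 and under 15% in 2. Ndufaf6 was the lowest at 17.7%, from 1.28 to 47.0%.

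Complex II is built from 4 nuclear subunits, and no mean among them exceeded 21.6%. Sdha, the flavoprotein that oxidises succinate, had 22.6% at day 0, 15.4, 25.8, 13.9 and 9.49% in Nons at days 4, 5, 6 and 7, and 13.0, 36.4, 17.1 and 0% in the knockdown on those days. Sdhb, the iron-sulfur subunit, had 0% at day 0, 26.6, 40.6, 13.6 and 5.56% in Nons at days 4, 5, 6 and 7, and 21.1, 30.8, 17.7 and 14.3% in the knockdown on those days. Each was at 0 in 1 library, and both were highest at day 5. Sdhc and Sdhd, the membrane anchors, had means of 21.6 and 19.9%, with ranges of 8.16 to 36.8% and 4.44 to 39.4%.

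Complex III passes electrons from ubiquinol to cytochrome c. Uqcrh, its hinge protein, was the highest of all 90 members with a mean of 41.0%, and its window at chr4:116074893-116076809 also holds the start of Lrrc41. It had 92.3% at day 0, 35.1, 48.7, 39.1 and 23.8% in Nons at days 4, 5, 6 and 7, and 27.3, 35.2, 19.1 and 48.1% in the knockdown on those days. The day 0 value was the highest of any member in any library, and the first rank of Uqcrh by mean depends on it. In every other library the gene was still above the promoter median. Cyc1, cytochrome c1 of this complex, had 8.57% at day 0, 37.3, 33.6, 42.4 and 13.3% in Nons at days 4, 5, 6 and 7, and 25, 58.8, 4.88 and 10.4% in the knockdown on those days. Uqcrfs1, the Rieske iron-sulfur protein, was the lowest of complex III at 19%. Cycs, the soluble cytochrome c that links complexes III and IV, had 5.66% at day 0, 27.7, 48.9, 11.3 and 20.2% in Nons at days 4, 5, 6 and 7, and 4.00, 46.7, 21.2 and 6.12% in the knockdown on those days. Its values were high at day 5 in both arms and low at day 0, and in the knockdown at days 4 and 7.

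Complex IV, cytochrome c oxidase, held the genes with tissue-restricted forms, and these were lower than the other members, with a median mean level of 16.6% against 21.8%. Of 8 such isoforms 3 lay above the promoter median by mean level, against 73 of the 82 other members (89.0%), and their median CpG observed over expected was 0.254, against 0.521 for the others. Cox8b, a heart and muscle form, was the lowest of the complex and had 19.6% at day 0, 4.92, 25, 30.0 and 4.88% in Nons at days 4, 5, 6 and 7, and 13.3, 17.0, 5.94 and 0% in the knockdown on those days. Ndufa4l2, a form known to respond to low oxygen, had a mean of 13.9%, Cox8c and Cox7b2, testis forms, had 14.6 and 15.3%, and Cox7a1, a heart and muscle form, had 17.9%. Cox6a2, also of heart and muscle, and Cox4i2, a lung form, had 19.7 and 21.0%. The exception was Cox6b2, a testis form, which was the highest of all complex IV windows and had 13.0% at day 0, 41.5, 54.1, 8.57 and 33.3% in Nons at days 4, 5, 6 and 7, and 25.4, 53.9, 30.3 and 48.3% in the knockdown on those days. It was above 40% in 4 libraries and at 8.57% in Nons at day 6. Without the 8 isoforms the median of complex IV was 22.9%.

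Complex V makes ATP. Atp5g1, which codes for subunit c of the rotating membrane ring, was the highest with a mean of 34.4%. It had 40.3% at day 0, 46.3, 48.4, 34.7 and 20.0% in Nons at days 4, 5, 6 and 7, and 27.9, 40.6, 26.5 and 24.7% in the knockdown on those days. Its lowest library, Nons at day 7, was still above the promoter 75th percentile of that library. Atp5g2 and Atp5g3, named after their values were seen, code for the same mature subunit and had means of 26.2 and 22.3%, and all 3 genes lay above the promoter median in all 9 libraries. The window of Atp5g2 holds no RefSeq start of the gene, which lies in another window. The lowest member overall was the second gene named Atp5o, whose 5′ end at 91926982 on chromosome 16 lies within the gene body of the first. It had 8.45% at day 0, 21.3, 20.4, 4.39 and 4.48% in Nons at days 4, 5, 6 and 7, and 17.5, 14.7, 10.5 and 3.45% in the knockdown on those days. The first Atp5o, for the stalk protein that joins the membrane part of the synthase to its catalytic head, had a mean of 19.2%.

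The course over days was shared with other promoters. Between days 4 and 5 in Nons the median change over members was 13.3 percentage points, against 9.92 over other promoter windows, and between days 5 and 6 it was -15.9 against -14.1. In the knockdown the same steps were 12.5 against 10.5 and -10.0 against -9.28. A day 5 library was the highest of the 9 for 68.9% of members and 75.1% of other promoter windows, and a day 7 library the lowest for 65.6% and 61.7%. The autosomal median over all windows moved with it, from 6.41% in Nons at day 7 to 21.2% in Nons at day 5, so a whole library's level and the cells' chromatin cannot be told apart here.

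Days 4 and 5 were set against days 6 and 7 with limma on quantile-normalized values, with arm as a term. No member reached an adjusted p of 0.05 (limma, Benjamini-Hochberg over 829493 windows, smallest 0.791 among members). At an unadjusted p under 0.05, 8 members (8.89%) were higher early, against 8.69% of promoter windows and 2.93% of all windows, and 5 (5.56%) were lower early, against 3.68 and 2.6%. The shares of members were close to those of promoters. Ndufaf8, a complex I assembly factor that works with Ndufaf5, had the smallest p among members, with 36.7% early and 19.7% late after normalization. Its fitted difference was 17.0 points (limma, unadjusted p = 0.00147, adjusted p = 0.791). Cox8c had 20.1% early and 9.31% late (limma, adjusted p = 0.876). Ndufaf5, an enzyme that modifies a complex I subunit, had 28.0% early and 16.9% late (limma, adjusted p = 0.889). On the percent as deposited, which keeps the shift of whole libraries, 40 members passed the unadjusted threshold, all higher early, against 39.8% of promoter windows and 26.2% of all windows that were higher early, and no member passed the adjusted one. With each library centred on its autosomal median 9 members were higher early, against 10.9% of promoter windows and 3.01% of all windows, and 1 was lower, against 2.27 and 2.55%.

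The comparison of both arms asks whether depleting Smarcc1 changes accessibility at these promoters. Over members the median of knockdown minus Nons was -4.08, -5.22, 1.72 and 3.67 percentage points for days 4, 5, 6 and 7. Over other promoter windows it was -4.01, -3.46, 1.63 and 0.758. The members were thus lower in the knockdown on the first pair of days and higher on the second, as promoters in general were. The mean over days was -0.977 ± 4.34 points (SD over 4 days), and relative to other promoters 0.294 ± 1.94. Both are smaller than the spread between days. At day 7 members stood 2.91 points above other promoters in this difference, and after quantile normalization 0.848. The knockdown library of that day had the largest share of other promoter windows at 0%, at 5.40%. In the 52 members with 1 start in the window the median differences were -2.29, -2.16, 0.696 and -0.883 points, so that day 7 was negative, and it differed from that of other promoter windows with 1 start by -1.64 points, while the 38 members with another start were at 5.89 points.

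**Figure D5:**
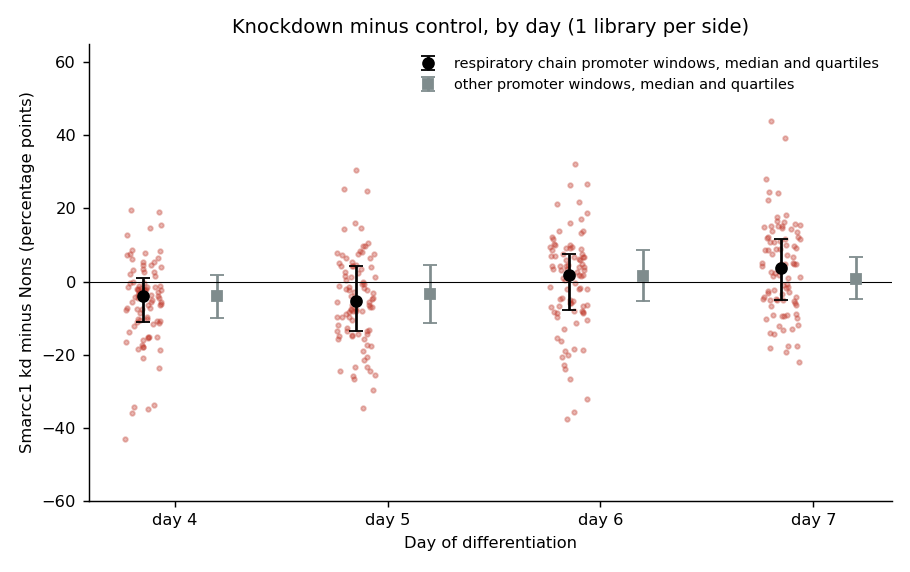
Knockdown minus Nons in percentage points (vertical axis) at each day of differentiation (horizontal axis), from 1 library on each side. Red points are the 90 members, and the black and grey symbols give median and quartiles of members and of other promoter windows. The medians lie below 0 at days 4 and 5 and above 0 at days 6 and 7, and single members range from -43.1 to 44.0 points.

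On single days the share of members that were lower in the knockdown was 74.4% at day 4 and 65.6% at day 5, against 67.7 and 61.4% of other promoter windows, and 43.3% at day 6 and 42.2% at day 7, against 43.3 and 46.2%. By complex, leaving aside the single window of Cycs, the median difference at day 5 ran from -11.5 points in complex II to -1.73 in complex IV, and at day 7 from -0.736 in complex III to 8.61 in the assembly factors of complex I. Complex V was at -4.61 points at day 6, when complex IV was at 5.91. The differences between complexes have no replicate and were not tested.

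A difference of one sign on all 4 days was seen in 4 members that were higher (4.44%), against 3.84% of promoter windows and 4.95% of all windows, and in 5 that were lower (5.56%), against 8.34 and 6.81%. The share of higher members lay between those of promoter windows and of all windows, and the share of lower members was under both. The 4 higher members were Uqcr11, a small subunit of complex III, Ndufaf5, Ndufa7, an accessory subunit of complex I, and Cox7a1, with mean differences of 9.95 ± 10.0, 8.67 ± 7.53, 7.41 ± 5.06 and 7.09 ± 3.95 points (SD over 4 days). Uqcr11 had 24.8, 32.9, 9.76 and 2.78% in Nons at days 4, 5, 6 and 7 against 29.3, 35.1, 18.3 and 27.3% in the knockdown. Its arms differed by 4.48, 2.25, 8.58 and 24.5 points, with most of the gap at day 7. Without that day the mean difference was 5.10 points.

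The 5 lower members were the assembly factor Ndufaf8, the accessory subunits Ndufa10 and Ndufb10 of complex I, Atp5c1, the central shaft of the synthase, and Uqcrc1, a core protein of complex III. Their mean differences were -12.1 ± 15.0, -11.6 ± 6.99, -9.49 ± 3.72, -9.90 ± 3.54 and -5.53 ± 6.64 points. The window of Ndufb10 holds no RefSeq start of the gene, which lies in another window. Ndufaf8 had 51.4, 52.1, 16.7 and 17.1% in Nons at days 4, 5, 6 and 7 against 16.9, 47.3, 10.0 and 14.5% in the knockdown. Most of the gap was at day 4, without which the mean was -4.71 points, and its window also holds the start of Tepsin. Ndufa10 had 25, 43.9, 23.1 and 9.35% in Nons at days 4, 5, 6 and 7 against 7.04, 26.6, 16.7 and 4.55% in the knockdown. The gap of Ndufa10 was shared more evenly by the days, and leaving out any 1 day left a mean between -13.9 and -9.52 points. These genes were picked for their direction, and their values are a description.

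The limma fit of the knockdown with day as a block found no window at an adjusted p of 0.05 (829493 windows tested, 35121 at an unadjusted p under 0.05, smallest adjusted p 0.995), and so no member. At an unadjusted p under 0.05, 2 members were higher (2.22%), against 2.88% of promoter windows and 1.58% of all windows, and 7 were lower (7.78%), against 7.67 and 2.65%. The members' shares were near those of promoters in both directions. After quantile normalization 6 members were higher, against 4.55% of promoter windows and 2.45% of all windows, and 7 lower, against 7.45 and 2.55%. With each library centred on its autosomal median the member counts were again 6 and 7, against 3.61 and 7.17% of promoter windows and 2.22 and 2.42% of all windows. The smallest p belonged to Uqcrq, a small subunit of complex III, whose window holds the start of Gdf9 too. Uqcrq had 52.9, 60.3, 38.2 and 17.4% in Nons at days 4, 5, 6 and 7 against 16.9, 34.5, 11.5 and 20.0% in the knockdown. The difference was -21.5 ± 16.7 points (limma unadjusted p = 0.000546, adjusted p = 0.995), and the arms overlapped only through the day 7 pair, in which the knockdown was the higher. Ndufa10 (limma unadjusted p = 0.00858) and Ndufa2, an accessory subunit of complex I (-12.1 ± 12.1 points, limma unadjusted p = 0.0141), came next, both with an adjusted p of 0.995.

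The 3 rule genes on the X chromosome, of which female cells silence 1 copy during differentiation, were outside the member set. Ndufb11, a membrane-arm subunit of complex I, had 24.3% at day 0, 32.8, 43.7, 32.4 and 22.8% in Nons at days 4, 5, 6 and 7, and 29.5, 43.0, 43.6 and 9.72% in the knockdown on those days. Ndufa1, also of complex I, and Cox7b, of complex IV, had means of 14.0 and 21.0%. All 3 lay within the range of the autosomal members.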

How the data were processed

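NOMe-seq values of 9 libraries, 1 per condition and day, were used, with groups and days taken from the sample titles. The authors deposited GpC methylation in percent over consecutive windows, which per the labels hold 200 read positions each, made in Seqmonk with both alleles merged. Their steps before that were trimming (trim_galore), alignment with Bismark against mm10 masked at FVB and CAST differences, and separation of GpC from CpG by coverage2cytosine in its NOMe-seq mode. The submitters' processing notes also name bcl2fastq and give no versions, while the study's reporting summary gives versions of Seqmonk and trim_galore. No normalization between libraries is shown by the values, and depth is unknown, so no counting interval was computed.

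From these files, windows on chromosomes 1 to 19 and X with a value in all libraries were kept. Starts and gene types came from GENCODE M21 on GRCm38, the assembly of mm10, and base composition from the GRCm38 sequence. Promoter sequences are RefSeq's (GRCm38.p6), matched by symbol or by a unique synonym, for 71 of 90 members, of which 64 had a RefSeq start in their window. The knockdown and the early against late differences were fitted with limma 3.58.1 in R 4.3.3 over all windows, the second on quantile-normalized percent. Both fits were also run on simulated windows, with a shift far larger than any mean knockdown difference of a member. That run therefore says nothing of the power to find differences of the size seen here. Days are a time course and stand in for replicates in these fits. With day as a block, the knockdown p-values measure how the difference between arms varies from day to day. The early against late fit has no term for day, so both libraries of a day count as independent. Its p-values therefore do not measure a spread between replicates. Other values are medians computed in Python 3.11.15.

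Named members were, in each complex, the highest and lowest by mean level, complex II, Cyc1, Cycs and the tissue-restricted isoforms, up to 5 with the largest rise and fall among those of one sign on all 4 days, and the 3 smallest p of each fit. Other gene lists gave at most 3 names each, the highest, the lowest and the largest absolute knockdown difference. The members and lists were chosen with earlier results of these data known. The alternatives covered means, the comparison set, window length, windows at 0 or 100%, start position, GC and CpG content, single starts, normalization, transformation, variance model, and leaving out each library or day.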

Additional observations from a re-analysis of the deposited data

Results flagged for a closer look

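The knockdown difference over the 90 member windows changed sign with time, and this difference between days was not tested, since each day has 1 library on each side. The median of knockdown minus Nons was -4.08 percentage points at day 4 and -5.22 at day 5, and 1.72 at day 6 and 3.67 at day 7. Other promoter windows changed sign in the same way, from -4.01 and -3.46 to 1.63 and 0.758. After quantile normalization the member values were -1.30, -0.521, 0.294 and 0.218. With means in place of medians the day 6 value was -0.223. In the 52 members with 1 start in the window the medians were -2.29, -2.16, 0.696 and -0.883 at days 4 to 7, so the change of sign did not hold at day 7 there.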

How the results depend on the processing

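The member excess of 3.95 percentage points stayed positive under every alternative run. It was 5.86 beside protein-coding and long non-coding promoters together, 2.93 in windows of 3 kb or less, 3.04 within the members' middle range of GC content and 1.16 within that of CpG content, the last chosen after seeing the data, and 3.82 to 4.12 when 1 library was left out. Windows with another start, and windows with CpG observed over expected of 0.6 and over, were not among these alternatives. The member median mean level was the lower one there, at 21.9% against 22.1% and at 23.0% against 24.4%. The 12 members above the promoter median in all 9 libraries became 19 with the wider comparison, 5 of 44 with the start in the middle of the window, 4 of 44 within the GC range and 6 of 52 in windows with 1 start, where fewer windows were compared, and 12 to 15 without 1 library. The 1 member above the 75th percentile everywhere became 0 with the start in the middle of the window, and 1 to 2 without 1 library, 2 without the knockdown at day 6.

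The knockdown difference and its distance from other promoters moved by less than the spread between days throughout, with ranges of -2.53 to 0.438 and -0.579 to 0.980 when 1 day was left out. The first turned positive without day 4 (0.0568) or day 5 (0.438), and within the CpG range (0.25). The second moved most within the CpG range, to 1.95 points in place of 0.294. By day it was 0.0768, 2.74, 1.36 and 3.61 points there at days 4, 5, 6 and 7, while day 5 was -1.77 in the main run. The 9 members at an unadjusted limma p under 0.05 became 2 with a variance trend and robust prior, 2 with no replicate block for day, and 11 to 14 without 1 day, 14 without day 5 or day 7. The background moved too: of 18779 promoter windows, 541 were higher and 1441 lower in the main fit. These became 239 and 688 with the trend and robust prior, and 177 and 442 without the block. Without day 5 the promoter counts were 945 and 1280, and without day 7 they were 441 and 1716. For early against late the 13 became 40 on the percent as deposited, 8 after an arcsine square root, 3 with a variance trend and robust prior, and 8 to 18 without 1 day, 8 without day 4. Of the promoter windows 1631 were higher early and 692 lower in the main fit. As deposited these were 7474 and 13, after the arcsine square root 1385 and 544, and with the trend and prior 887 and 379. Without day 4 they were 1420 and 545, and without day 7, which gave 18 members, 1491 and 1130. Over all windows the counts were 35121 with and 5922 without the block for the knockdown, and 45913 after quantile normalization and 217011 as deposited for early against late. The knockdown split of all windows, 13124 higher and 21997 lower, was 20315 and 21142 after quantile normalization. The deposited percent keeps library shifts, and the causes of these changes in count were not tested. Without replicates or depth, small differences at single windows could not be assessed.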

Other observations

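Genes that serve the respiratory chain without belonging to it had start windows of similar levels, beside the members' median mean level of 21.6%. At an unadjusted limma p under 0.05 for the knockdown, 2.88% of all promoter windows were higher and 7.67% lower. Of all windows 1.58% were higher and 2.65% lower, and the counts below stand beside these shares. The 44 other assembly factors had a median mean level of 21.9%, from Tmem186, a complex I assembly factor, at 13.1% to Uqcc2, of complex III, at 31.8%, and 4 of 44 passed that threshold, all lower, which is near the share of promoter windows. Sco2, a copper chaperone of complex IV, had the largest of these differences at -10.8 points (limma, adjusted p = 0.995). The 19 genes for mitochondrial DNA upkeep and expression had 21.7%. Mterf1b was the lowest at 15.5%, and Polrmt, the mitochondrial RNA polymerase, the highest at 31.0%. Polrmt was also the only one past the unadjusted threshold, higher in the knockdown by 13.9 points (limma unadjusted p = 0.00480, adjusted p = 0.995), and had 42.9% at day 0, 36.3, 35.5, 3.45 and 15.0% in Nons at days 4, 5, 6 and 7, and 36.2, 61.5, 21.1 and 27.1% in the knockdown on those days.

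The 11 nuclear regulators of these genes had a median mean level of 28.8% and a median CpG observed over expected of 0.667. Sp1 was the highest at 49.4%, and Ppargc1a, the coactivator of mitochondrial biogenesis, the lowest at 12.0%. Their median knockdown difference was 1.5, 1.40, 3.30 and 7.88 points at days 4 to 7. At the unadjusted limma threshold 3 of 11 passed, all higher, against 2.88% of promoter windows and 1.58% of all windows. Of the other promoter windows with CpG observed over expected of 0.6 and over, 220 of 4153 were higher at it. Among the regulators the coactivator Ppargc1b had the largest difference at 11.8 points (limma, adjusted p = 0.995). The 13 genes of the tricarboxylic acid cycle had 21.3%, from Idh2 at 15.7% to Dlst at 31.1%, with 1 lower in the knockdown at that unadjusted threshold, Sucla2 (-11.4 points). The 16 genes of glycolysis had 21.0%, from Hk1 at 14.0% to Pkm at 31.7%, with 1 higher at it, Tpi1 (9.21 points). The start windows of the stem cell markers ran from Esrrb at 13.1% to Sox2 at 34.1%, and 0 of 8 passed that threshold for the knockdown, with Nanog showing the largest absolute difference at 7.64 points.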
